A study of Mus musculus with 7 samples.

Results

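In cultured mouse dermal fibroblasts, 353 CpG-dense stretches of 1 kb stood near the middle of the methylation scale, neither unmethylated like most CpG islands nor methylated like most of the genome. They were found by cutting the autosomes of the mm9 build into 1-kb bins and keeping each bin with 80 or more CpG cytosines, a mean methylation of 35% to 65% and at least 50% of its cytosines between 25% and 75%. A CpG has a cytosine on each strand, so 80 cytosines come from 40 CpGs with values on both strands. Of 2297432 autosomal bins with any CpG cytosine, 18438 were this dense, and the 353 intermediate bins were 1.91% of them. These bins were chosen by their methylation, so their methylation values are given as a description with no test.

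The data came from primary dermal fibroblasts of female FVB/N mice, cultured for 8 days. RNA was sequenced from cells treated for 3 h with thapsigargin and from untreated cells, with 1 library each. Chromatin was immunoprecipitated with antibodies to CEBPB in thapsigargin-treated and in untreated cells and to ATF4 in thapsigargin-treated cells, again with 1 library each. Methylation came from 2 bisulfite libraries of fibroblasts whose labels name no thapsigargin, deposited as 1 pooled percent per cytosine, so it has no replicate spread here. All groups share strain, sex and culture. Thapsigargin inhibits the pump that fills the endoplasmic reticulum with calcium and so induces ATF4, a bZIP transcription factor that can pair with CEBPB on DNA. No label says whether the cells of the libraries came from 1 animal or several.

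The cells carried the markers of their label, beside markers of other cell types. Of 11 fibroblast markers, 10 were at FPKM 1 or more in treated cells and 11 in untreated cells, with summed levels of 4249.6 FPKM in treated and 16291 FPKM in untreated cells. Of 8 macrophage and leukocyte markers, 7 were at FPKM 1 or more in each library, and they summed to 1189 and 1163 FPKM in treated and untreated cells, led by Lyz2, with Cd3e listed at 0 in untreated cells. Of 6 muscle and pericyte markers, 5 were at FPKM 1 or more in each library, summing to 514 FPKM in treated and 1177 FPKM in untreated cells. Most of these sums was Acta2 alone, with 475 FPKM in treated and 1124 FPKM in untreated cells. Keratinocyte markers summed to 2.43 and 25.1 FPKM, and melanocyte and Schwann cell markers to 4.58 and 33.9 FPKM, in treated and untreated cells. Of 8 keratinocyte markers, 7 reached FPKM 1 in untreated cells and 0 in treated cells. Endothelium markers summed to 11.3 and 24.2 FPKM and adipocyte markers to 9.02 and 17.3 FPKM in treated and untreated cells. The part of other cell types in the middle methylation values was not tested. The confidence bounds of the RNA tables implied 78945813 fragments in genes of the treated and 53913511 of the untreated library. The peak lists held 7861 CEBPB peaks of treated cells, 10109 ATF4 peaks of treated cells and 7317 CEBPB peaks of untreated cells.

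CpG islands are CpG-rich stretches that lie over many gene starts and are usually free of methylation, while isolated CpGs elsewhere are mostly methylated. At imprinted genes, a CpG-rich control region is methylated on the chromosome from 1 parent and not on the other, so a pool of cells reads near the middle of the scale. A middle value can also come from cells or molecules that differ from each other, and a percent per cytosine cannot separate these cases. The zinc finger protein ZFP57 holds methylation at many imprinted control regions in mice and binds the methylated 6-mer TGCCGC.

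Among the loci with most intermediate bins, 4 windows with the most CpGs that lie in coding sequence are shown for the kind of sequence involved, with each CG in capitals. They lie at chr4:41445270-41445469 (AI464131, an uncharacterised gene), chr10:79778099-79778298 (Apc2, a relative of the APC tumour suppressor), chr17:34808547-34808746 (Tnxb, the matrix protein tenascin X) and chr10:80297528-80297727 (Lingo3, a leucine-rich repeat membrane protein), all on the plus strand of mm9. Each is the 200-bp window with most CpGs in the bin with most cytosines. The windows of Gnas and Sema6c chosen the same way reach annotated untranslated sequence and are not shown.
AI464131: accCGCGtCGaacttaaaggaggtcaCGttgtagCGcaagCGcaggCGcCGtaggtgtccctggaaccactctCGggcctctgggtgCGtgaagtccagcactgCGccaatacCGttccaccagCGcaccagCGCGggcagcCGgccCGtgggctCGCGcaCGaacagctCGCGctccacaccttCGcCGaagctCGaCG
Apc2: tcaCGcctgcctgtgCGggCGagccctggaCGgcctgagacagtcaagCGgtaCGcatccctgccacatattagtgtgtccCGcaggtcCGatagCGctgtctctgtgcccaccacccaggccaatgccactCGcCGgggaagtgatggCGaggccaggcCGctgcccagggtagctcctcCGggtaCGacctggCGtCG
Tnxb: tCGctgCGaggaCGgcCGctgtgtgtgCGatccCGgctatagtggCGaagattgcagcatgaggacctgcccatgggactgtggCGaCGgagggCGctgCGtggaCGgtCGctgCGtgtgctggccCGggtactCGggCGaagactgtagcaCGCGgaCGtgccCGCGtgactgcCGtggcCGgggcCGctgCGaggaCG
Lingo3: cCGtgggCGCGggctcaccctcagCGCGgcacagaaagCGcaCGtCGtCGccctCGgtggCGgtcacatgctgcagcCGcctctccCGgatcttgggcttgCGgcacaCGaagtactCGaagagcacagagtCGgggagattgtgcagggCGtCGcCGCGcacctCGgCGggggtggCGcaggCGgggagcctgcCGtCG
The AI464131 window held 26 CpGs, and its 52 cytosines ran from 8% to 73% with a median of 45%. The Apc2 window held 17 CpGs at 33% to 78%, with a median of 63%. The Tnxb window held 27 CpGs at 5% to 63%, with a median of 25.5%. The Lingo3 window held 27 CpGs at 5% to 64%, with a median of 29.5%.

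At imprinted loci, 4 windows with 3 matches of TGCCGC or of its reverse complement GCGGCA are shown, with the matches in capitals. These windows were chosen, after the values were seen, from the imprinted bins with most matches, leaving out untranslated sequence. They lie in annotated introns at chr7:6682687-6682886 (Peg3, a paternally expressed zinc finger gene), chr15:72640354-72640553 (Peg13, a noncoding RNA gene inside Trappc9), chr2:174121258-174121457 (Gnas, the stimulatory G protein alpha subunit) and chr7:135831354-135831553 (Inpp5f, a phosphoinositide phosphatase), on the plus strand of mm9. For the Peg13 window the intron is that of Trappc9, and the window lies within the expression entry of Peg13 itself (chr15:72636029-72640754).
Peg3: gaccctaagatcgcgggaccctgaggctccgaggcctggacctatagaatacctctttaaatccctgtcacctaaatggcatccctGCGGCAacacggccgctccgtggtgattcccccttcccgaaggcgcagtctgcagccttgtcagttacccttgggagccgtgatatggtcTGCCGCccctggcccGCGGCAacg
Peg13: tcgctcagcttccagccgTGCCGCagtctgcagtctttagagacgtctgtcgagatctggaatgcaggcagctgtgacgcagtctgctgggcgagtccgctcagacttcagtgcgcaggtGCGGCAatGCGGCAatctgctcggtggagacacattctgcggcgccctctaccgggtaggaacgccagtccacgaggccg
Gnas: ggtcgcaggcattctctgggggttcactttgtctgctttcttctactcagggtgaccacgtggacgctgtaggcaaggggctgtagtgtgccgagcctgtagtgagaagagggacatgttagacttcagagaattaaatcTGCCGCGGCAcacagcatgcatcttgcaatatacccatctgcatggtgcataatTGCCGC
Inpp5f: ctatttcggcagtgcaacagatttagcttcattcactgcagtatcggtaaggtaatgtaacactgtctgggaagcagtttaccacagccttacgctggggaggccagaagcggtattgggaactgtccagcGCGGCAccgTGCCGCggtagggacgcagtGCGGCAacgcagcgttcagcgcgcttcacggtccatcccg
The 36 cytosines of the Peg13 window lay between 33% and 57% with a median of 45%. Those of the Gnas window lay between 30% and 55%, also with a median of 45%. The Peg3 window ran from 15% to 48% with a median of 37.5%, and the Inpp5f window from 27% to 65% with a median of 40.5%. A match is a string of letters and not a measured binding site.

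**Figure D1:**
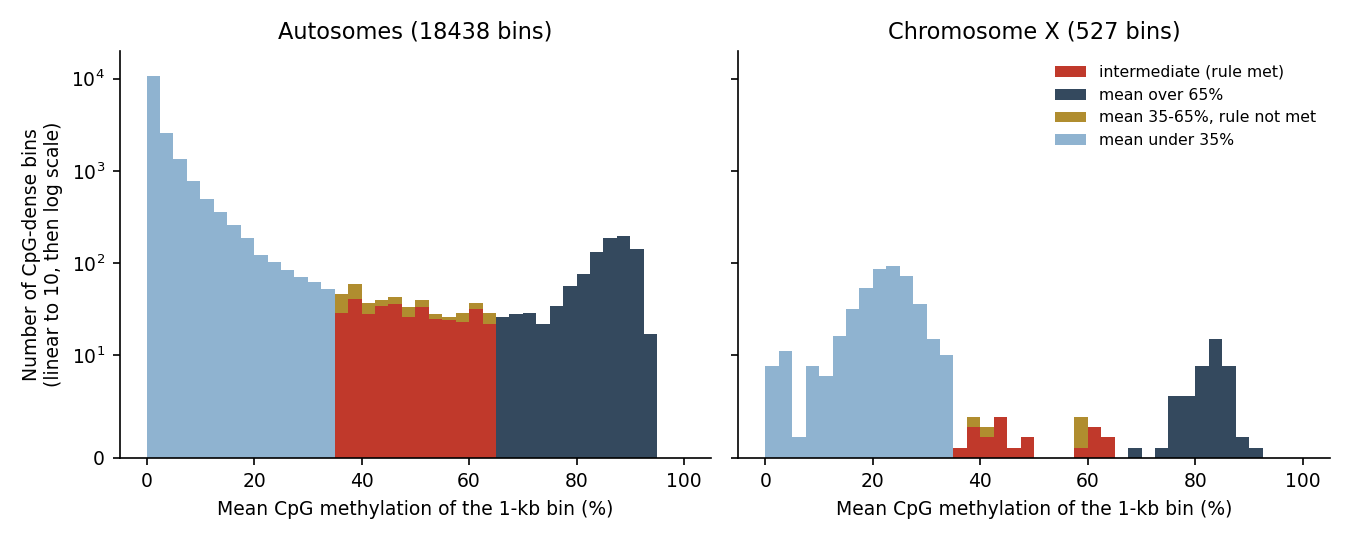
Mean methylation of every CpG-dense 1-kb bin on the autosomes (left) and on chromosome X (right), in steps of 2.5 percentage points, with the bins that met the rule in red. The count axis is linear to 10 and logarithmic above, and on the autosomes the 353 intermediate bins fill a low floor between 17042 bins under 35% and 948 bins over 65%.

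The intermediate bins formed no peak of their own in the plot of bin means. Their means had a median of 48.2%, against 1.69% over all 18438 dense autosomal bins, of which 17042 had a mean under 35% and 948 a mean over 65%. A further 95 bins had a mean of 35% to 65% but failed the rule on single cytosines. In these 95 bins the methylation mostly ran from low to high along the bin: position explained over 50% of the variance in 73 of them, against 32 of the 353 intermediate bins (9.07%). For 203 intermediate bins (57.5%) at least 1 of the neighbouring bins also had a mean between 35% and 65%. Another 46 (13%) lay between a neighbour under 35% and one over 65%, 86 (24.4%) had neighbours over 65% on both sides and 5 had neighbours under 35% on both sides.

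The limits cut through a continuum. The lowest mean inside was 35.1% at chr7:148650001-148651000 and the nearest outside was 34.8% at chr7:50731001-50732000. At the upper limit the nearest values were 64.8% inside and 65.1% outside. On either side of these limits, 39 intermediate bins lay within 2 percentage points inside and 40 otherwise eligible bins within 2 points outside.

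Chromosome X, which is inactivated on 1 copy in each female cell, had its own pattern. Its 527 dense bins had a median of 23.4%, with quartiles of 19.6% and 27.6%, below the lower limit. The rule was met by 19 of them (3.61%), a higher share than the 1.91% of autosomal dense bins. The 353 bins described here are autosomal only.

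Among autosomes, the bins were spread unevenly. Chromosome 18 had 39 of its 581 dense bins in the set (6.71%), the highest share, and chromosome 16 had the lowest with 3 of 558 (0.538%). Chromosome 7 had the most by number, with 40 of 1366. Joining bins at most 10 kb apart gave 285 loci, of which 247 held 1 bin and 31 held 2.

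The loci with most intermediate bins were in the clustered protocadherin genes and at Gnas. Clustered protocadherins are cell adhesion proteins whose promoters are chosen at random in single neurons. In the alpha cluster, chr18:37091001-37136000 held 11 intermediate bins with means of 36.5% to 63.2%, and chr18:37152001-37182000 held 7 with means of 43.2% to 61.4%. In the gamma cluster, chr18:37881001-37928000 held 11 with means of 35.1% to 62.3% and chr18:37834001-37852000 held 3 with means of 46.1% to 60.9%. In all, 36 of the 39 bins on chromosome 18 overlapped protocadherin genes, a grouping made after the bins were seen. Of these 36 bins, 19 matched another place in the genome over 500 bp or more at 90% identity, so reads there could be shared between family members.

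Outside the protocadherins, Gnas, which gives rise to several imprinted transcripts and the antisense Nespas, held 6 bins at chr2:174111001-174127000, with means of 38.3% to 50.3%. AI464131 at chr4:41444001-41447000 had 3 bins at 48.8% to 60.5%, and Apc2 at chr10:79776001-79779000 had 3 at 49.9% to 60.9%. The remaining 8 of the 15 loci with most bins had 2 each, taken in order of their number of cytosines. They were Tnxb, Sema6c (a semaphorin), Lingo3, Gm1564, Shank3 (a synaptic scaffold), Dos, Zfp316 and the neighbours Fbxl8 and Hsf4 (a heat shock factor).

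Imprinted loci made up part of the set. Of the 353 intermediate bins, 28 (7.93%) held or lay within 50 kb of a gene on a list of 67 imprinted genes, against 127 of all 18438 dense bins (0.689%). The share was 0.422% in bins over 65% and 0.546% in bins under 35%. The 28 bins fell into 18 loci and near 30 of the 66 listed genes with an autosomal position. With the minimum lowered to 60 cytosines, 39 of the 66 genes had an intermediate bin within 50 kb, adding H19, Snrpn, Rasgrf1 and Cdh15 among others.

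**Figure D2:**
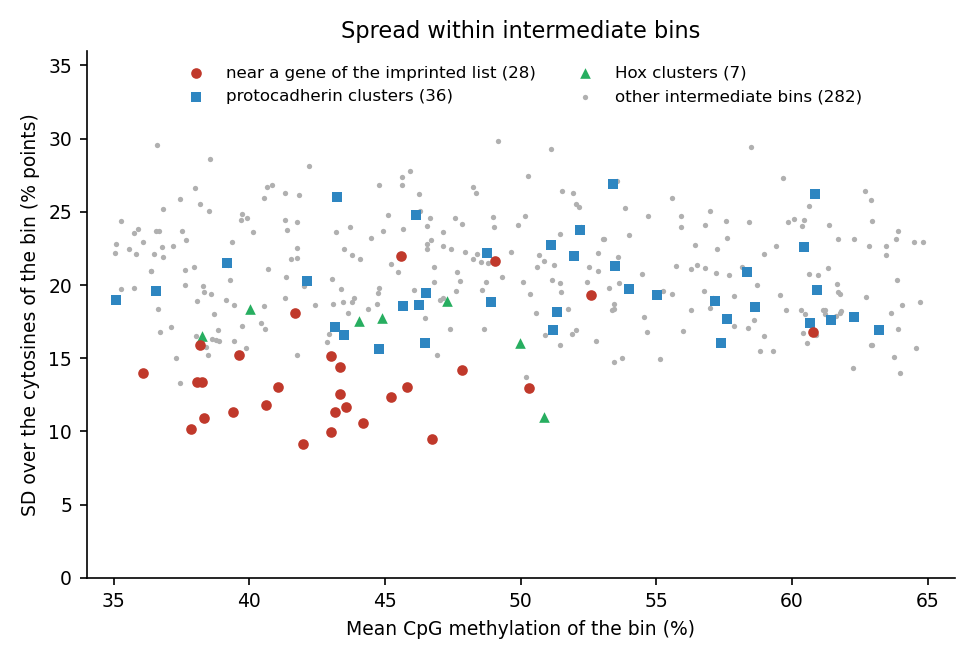
Mean methylation of each of the 353 intermediate bins (x axis, %) against the SD over its cytosines (y axis, percentage points), by class. Bins near a gene of the imprinted list lie lowest, with a median SD of 13.1 against 20.8 for the other intermediate bins.

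Within a bin, cytosines at imprinted loci varied less. The SD over the cytosines of a bin had a median of 13.1 percentage points in the 28 imprinted bins, from 9.14 to 22.0, and of 20.8 in the other 325, from 11.0 to 29.8. An SD under 15 was found in 20 of the 28 imprinted bins (71.4%) and in 8 of the other 325 (2.46%). Among the 16 bins with the lowest SD, 15 were imprinted. The exception was a bin at chr6:52155001-52156000, 415 bp from the annotated start of Hoxa5, a homeobox gene, with a mean of 50.8% and an SD of 11.0. The lowest was Peg13 inside Trappc9, with a mean of 42.0% and an SD of 9.14. Peg10, a retrotransposon-derived gene, followed with a mean of 46.7% and an SD of 9.49, then Impact, a regulator of the kinase GCN2, with 43.0% and 9.97. The SDs rest on pooled values without coverage, so the counting noise per cytosine is unknown.

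The imprinted bins lay below the middle. Their means had a median of 43.1%, and 25 of 28 were under 50%, against 169 of the other 325 (52.0%). The lowest of the 28 was 36.1% and the highest 60.8%, both at Nnat, a paternally expressed gene within an intron of Blcap. At Plagl1, a zinc finger gene, the 142 cytosines had a mean of 37.8% and at Zrsr1, a retrogene inside Commd1, the 145 cytosines had a mean of 43.6%. At Kcnq1ot1, the antisense RNA of the Kcnq1 domain, 139 cytosines averaged 43.0%, and at Airn, the antisense RNA inside Igf2r, the bins averaged 39.6% and 43.1%. Mest had 43.3% and 38.3%, Peg3 39.4% and 38.1%, and Meg3, a maternally expressed noncoding RNA, 45.2%. Grb10, a receptor adaptor, had 38.2%, Slc38a4, an amino acid transporter, 45.8%, Nap1l5, a retrogene inside Herc3, 47.8%, Mcts2, a retrogene inside H13, 45.6%, and Inpp5f 52.6%. Most of the 28 bins were part of longer regions: 23 (82.1%) belonged to a stretch of 3 kb or more of adjacent bins with means of 35% to 65%, against 91 of the other 325 (28.0%). This was not particular to imprinted loci. The share was 75% in the 36 protocadherin bins, 57.1% in 7 bins of the Hox clusters and 21.3% in the remaining 282. Several bins can share 1 stretch, as at Gnas.

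**Figure D3:**
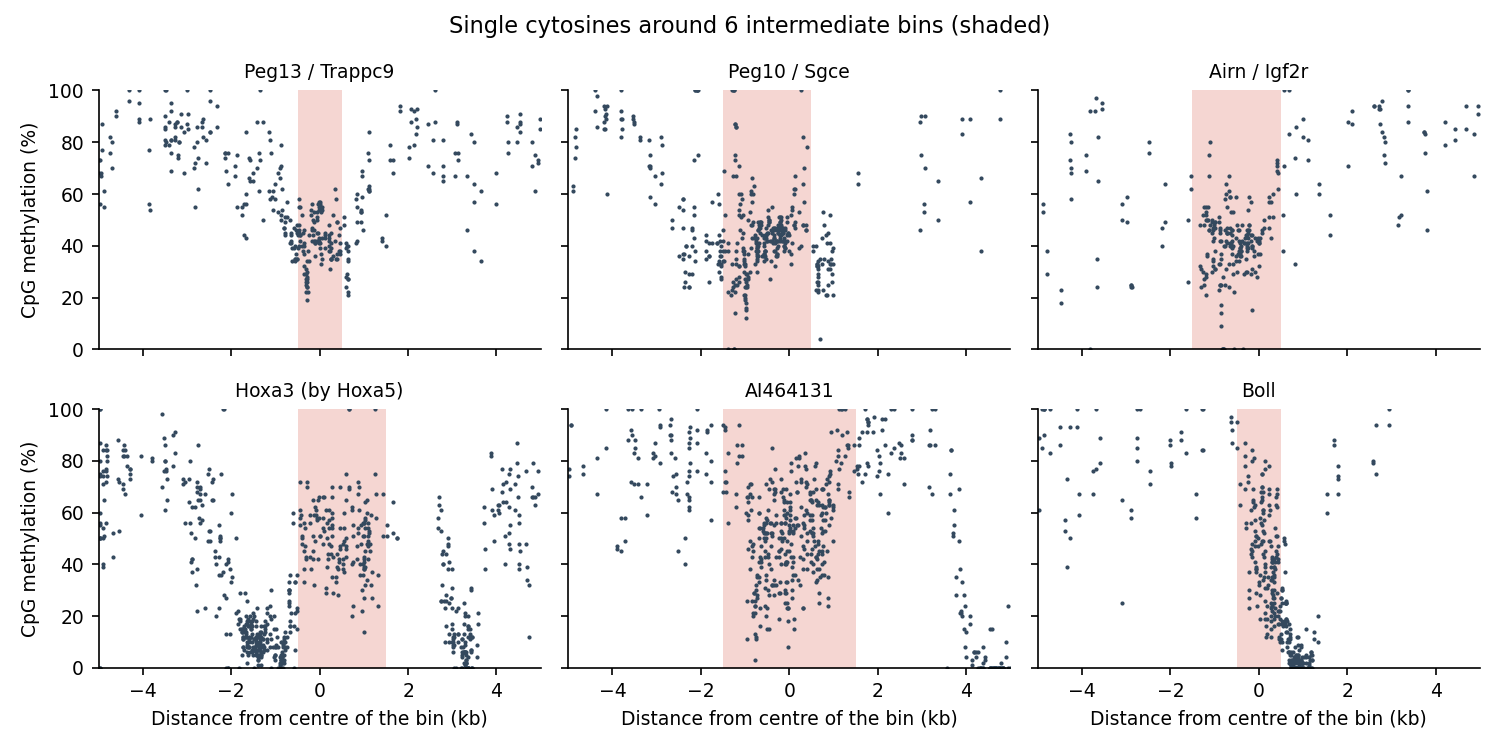
Methylation of single CpG cytosines (y axis, %) by distance from the centre of an intermediate bin (x axis, kb) at 6 loci, with intermediate bins shaded. The shaded bins of Peg13, Peg10 and Airn have means of 39.6% to 46.7% and SDs of 9.14 to 18.1 percentage points. The Hoxa3 region forms a broader plateau near 50%, AI464131 a scatter with bin SDs of 16.6 to 21.5 and Boll a slope from one side to the other.

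The shapes differed between loci, as the plot of single cytosines shows. At Peg13 the flanking bins averaged 55.2% and 48.2%. At Boll, which encodes an RNA-binding protein of male germ cells, the intermediate bin had a mean of 43.5% between a neighbour at 87.0% and one at 6.33%. The 2 Hoxa bins beside Hoxa5 had means of 50.8% and 49.97%, next to a bin at 11.3%. Across the Hox clusters, which set position along the body, 7 bins were intermediate, with means of 38.3% to 50.8%.

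The 6-mer TGCCGC was counted on both strands of every dense bin. It occurred in 196 of the 353 intermediate bins (55.5%), near the 51.6% of all dense bins. Of the 28 imprinted bins, 22 (78.6%) had it, and 16 (57.1%) had 3 or more matches, against 13 of the other 325 (4%) and 6.46% of all dense bins. The highest counts were 7 in a bin of Mest and 6 in a bin of Peg3, while bins of Zrsr1, Grb10 and Slc38a4 had none. TGCCGC can overlap its own reverse complement, as in the Gnas window printed above, and overlapping matches were counted separately.

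Motifs of the immunoprecipitated factors were rare. CGATGCAA, a composite site described for CEBPB with ATF4, occurred in 7 intermediate bins (1.98%), against 0.700% of all dense bins. TGATGCAA occurred in 4 (1.13%, against 1.37%), the C/EBP palindrome TTGCGCAA in 3 (0.850%, against 0.526%) and the CRE palindrome TGACGTCA in 6 (1.7%, against 3.19%). CGCG occurred in 328 (92.9%, against 97.7%). In base composition the intermediate bins stood close to the rest, with a median GC content of 58.9%, against 59.6% in all dense bins. Their observed over expected CpG ratio had a median of 0.609, against 0.728 in bins under 35% and 0.575 in bins over 65%. Copies elsewhere in the genome were found for 33 intermediate bins (9.35%), against 17.8% of bins over 65%, 1.16% of bins under 35% and 2.20% of all dense bins.

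By position, most of these bins lay away from annotated gene starts. Each gene was given only the start at the outer end of its annotated span, so promoters inside genes were not marked. Only 75 intermediate bins (21.2%, 95% Wilson interval 17.3% to 25.8%) lay within 1 kb of an annotated gene start, against 79.4% of bins under 35% and 9.18% of bins over 65%. Of the others, 126 had their centre in coding sequence (35.7% of all, interval 30.9% to 40.8%), against 3.06% of bins under 35% and 48.2% of bins over 65%. A further 85 (24.1%) lay in introns, 37 (10.5%) between genes, 21 in untranslated exons and 9 in other exons. The imprinted bins were placed differently, with 16 of 28 at a gene start. Intervals here and below cover counting error only and treat bins as independent, although neighbouring bins share a locus.

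Some genes with coding or intronic bins, picked after the bins were seen, are given as examples. Bins with means of 36.4% and 46.5% lay in coding sequence of Sox9 and Tbx2, which encode transcription factors of cartilage and heart. Runx3 had bins at 36.8% and 53.5% and Gata3, a T cell and skin factor, 1 bin at 44.7%. Nr4a2 (36.6%), Egr1 (51.1%), Egr3 (40.7%) and Fosb (36.5%), immediate-early genes whose transcription rises within minutes of a stimulus, carried an intermediate bin in the body. At Nr4a3 the bin lay in an annotated intron, 2119 bp from the start used by its expression entry, and had a mean of 39.1%.

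At gene starts, the genes beside intermediate bins were expressed at lower levels than those beside bins under 35%. FPKM counts sequenced fragments relative to transcript length and library size, a level per length, so genes can be compared. In bulk RNA, fewer cells of a type and less RNA per cell cannot be told apart. The 63 gene entries that start within 1 kb of an intermediate bin had a median of 0.467 FPKM in thapsigargin-treated and 0.715 FPKM in untreated cells. The 67 entries at bins over 65% had medians of 0.0350 and 0.0228 FPKM in treated and untreated cells, and the 11220 at bins under 35% had 5.11 and 7.86 FPKM. Of the 63 entries, 28 stood at FPKM 1 or more in treated cells (44.4%) and 27 in untreated cells (42.9%), against 74.4% and 79.5% of the entries at bins under 35%. Over all 23583 entries the shares were 46.3% and 50.3%, with medians of 0.565 and 1.04 FPKM in treated and untreated cells. The 63 entries thus stood near, and somewhat below, the level of all entries. The 15 of these 63 that also start within 1 kb of a bin under 35% were kept.

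**Figure D4:**
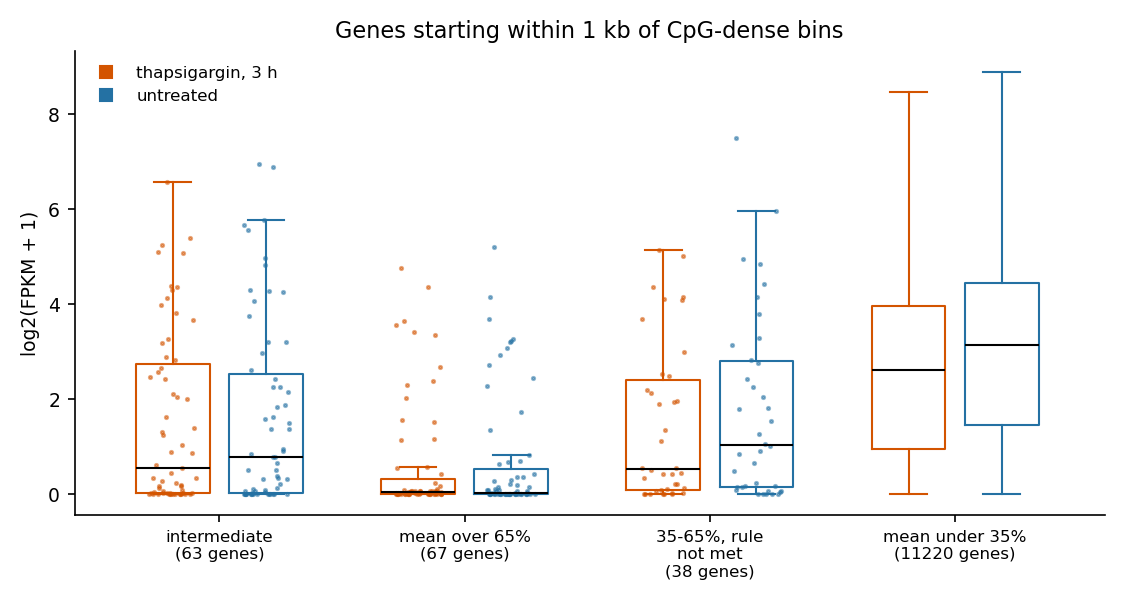
Levels of genes that start within 1 kb of a CpG-dense bin, as log2(FPKM + 1), in thapsigargin-treated (left box) and untreated cells (right box) for each class of bin. Boxes give median and quartiles, whiskers reach the last value within 1.5 times the box height, points are genes (not drawn for the 11220 genes of the last class), and the intermediate class lies between the class over 65% and the class under 35%.

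The low median came from genes outside the imprinted list. The 14 entries of the list had medians of 7.27 FPKM in treated and 5.30 FPKM in untreated cells, and 12 of 14 stood at FPKM 1 or more in each library. The other 49 had medians of 0.179 and 0.263 FPKM in treated and untreated cells, with 16 and 15 of them at FPKM 1 or more. Of these 49, 8 were listed at 0 in treated and 14 in untreated cells.

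Some genes known for their roles in the testis stood under 1 FPKM in both libraries. Adad1, an RNA-binding protein gene of spermatids, had 0.00779 FPKM in treated and 0.0892 FPKM in untreated cells, with a bin at 56.3%. Papolb, a testis poly(A) polymerase, had 0.848 and 0.0404 FPKM in treated and untreated cells, a ratio of 21.0 (95% counting interval 9.35 to 47.2), with a bin at 62.3%. Dmrtc2 and Rsph6a, a sperm flagellum gene, were listed at 0 in both libraries, beside bins at 53.1% and 63.4%. Boll had 0.00817 FPKM in treated cells and was listed at 0 in untreated cells. These genes were picked after their values were seen. On a list of 30 germline genes, the start of only 1 lay within 1 kb of an intermediate bin: Tdrd1, a piRNA pathway gene, at 61.8% methylation, 0.00891 FPKM in treated and 0.0246 FPKM in untreated cells. On the same list 14 genes, among them Dazl, Ddx4 and Sycp3, start within 1 kb of a bin over 65%, and 1, Tdrd6, of a bin under 35%.

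The protocadherin genes differed between clusters. Of 36 entries that overlap an intermediate bin, 18 stood at FPKM 1 or more in treated and 23 in untreated cells, with medians of 1.01 and 2.29 FPKM. The 13 alpha entries at chr18:37152001-37182000 reached at most 0.0896 FPKM in treated and 0.163 FPKM in untreated cells. The entries over the longest gamma run reached 3.08 FPKM in treated and 9.97 FPKM in untreated cells. Fragments of the shared exons of these genes cannot be assigned to 1 of them, so each level is uncertain.

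The RNA of treated and untreated cells asks how genes near these bins stand after the stress that brings about ATF4. With 1 library per condition no p-value was computed and differences have no replicate check. A change is the difference of log2(FPKM + 1), treated minus untreated, called at 1 or more in size for genes that reach FPKM 1 in either library. Of 284 entries that start within 10 kb of an intermediate bin, 180 were expressed at that level. Of these, 17 were higher in treated cells (9.44%), beside 6.02% of all 12207 expressed entries, and 52 were lower (28.9%), beside 28.2%. The median change was -0.51 near the bins and -0.52 over all, so the counts stood close to the background.

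The whole treated library was shifted, and the split depends on how that is handled. Centring on the median of genes at FPKM 5 or more in both libraries (-0.40) gave 25 higher and 26 lower near the bins, beside 11.0% higher and 15.8% lower over all. Lowered genes also had more exon junctions: a median of 4.90 per kb in the 51 of 52 lower genes with a value, against 1.13 in 16 of the 17 higher and 1.65 in the others near the bins, and 4.91 in all lowered entries. The part of RNA quality in these changes was not tested. Subtracting the median change of genes of like junction density gave 20 higher and 22 lower of 172 near the bins, beside 12.2% and 10.5% over all.

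The 6 largest increases near the bins were those of Has1, Nr4a3, Dos, Tnfaip2, Nnat and Insl3. Has1, a hyaluronan synthase, had 20.8 FPKM in treated and 0.349 FPKM in untreated cells, a ratio of 59.6 (95% counting interval 44.6 to 79.7) and a log2 change of 4.02. Its coding sequence held a bin at 52.9%, and that bin overlapped an ATF4 peak low in its list (authors' score 3.31, rank 9048 of 10109). Of all dense bins, 44.6% overlapped an ATF4 peak. Nr4a3, an orphan nuclear receptor, had 14.3 FPKM in treated and 0.785 FPKM in untreated cells. Dos, a calcium channel regulator gene with 2 intermediate bins, had 34.3 and 5.71 FPKM in treated and untreated cells, and Tnfaip2, a gene induced by tumour necrosis factor with 2 bins, had 105 and 20.2 FPKM. Nnat had 8.60 FPKM in treated and 1.61 FPKM in untreated cells. Insl3, a relaxin-family hormone, had 2.45 FPKM in treated cells and nearly 0 in untreated cells.

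Beyond that window, Nr4a2, which carries a bin in its coding sequence 11414 bp from its start, had 58.7 FPKM in treated and 3.34 FPKM in untreated cells. Runx1, a haematopoietic transcription factor with a bin in an intron, had 39.8 FPKM in treated and 12.6 FPKM in untreated cells. Egr1 had 299 and 139 FPKM in treated and untreated cells, whereas Egr3 had 5.54 and 3.21 FPKM and Fosb 2.62 and 2.85 FPKM, both short of the limit for a change, although Egr3 passed it after centring, at 1.03. Among 191 expressed entries whose body overlaps an intermediate bin, 14 were higher (7.33%) and 45 lower (23.6%). Over all expressed entries the shares were 6.02% and 28.2%. The lower ones included Sema6c (1.41 FPKM in treated and 8.24 FPKM in untreated cells), AI464131 (2.05 and 5.84 FPKM) and Runx3 (1.89 and 5.08 FPKM). Only Sema6c of these stayed past the limit after centring, at -1.54. Of the genes in this paragraph, all but Egr1 were picked after their values were seen.

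The 6 largest decreases near the bins were those of Rpl10a, Ssbp4, Ngfr, Cpsf1, Tubg2 and Mest. Rpl10a, a ribosomal protein, had 1.74 FPKM in treated and 98.4 FPKM in untreated cells, a log2 change of -5.18, but 55.4% of its coding transcript has copies elsewhere at 95% identity and its level is uncertain. Ssbp4, a single-strand DNA-binding protein with 2 bins, had 5.83 and 54.0 FPKM in treated and untreated cells. Ngfr, the low-affinity neurotrophin receptor, had 5.38 FPKM in treated and 45.2 FPKM in untreated cells, a ratio of 0.119 (interval 0.114 to 0.124), and only 1.45 junctions per kb. Cpsf1, a polyadenylation factor, had 1.21 and 14.1 FPKM, and Tubg2, a gamma tubulin, 0.524 and 7.79 FPKM in treated and untreated cells. The log2 change of Ssbp4 was -3.01 before and -1.32 after the junction adjustment, that of Cpsf1 -2.78 and -1.25, that of Tubg2 -2.53 and -1.63 and that of Ngfr -2.86 and -2.65.

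Among the most abundant genes near the bins, Gnas had 910.0 FPKM in treated and 1320.1 FPKM in untreated cells. Ubb, a polyubiquitin gene, had 513 and 527 FPKM, Tubb5, a beta tubulin with a bin at 50.5% in its coding sequence, 356 and 471 FPKM, and Atp5d, a subunit of ATP synthase, 139.9 and 204 FPKM in treated and untreated cells. Clic1 (an intracellular chloride channel, 84.0 and 194 FPKM) and Sec13 (a coat protein of vesicles, 55.3 and 119 FPKM) were lower in treated cells, but neither change reached 1 after centring. Oaz1, which inhibits polyamine synthesis, had 27.7 and 161 FPKM in treated and untreated cells, with 96.9% of its transcript copied elsewhere. For Ubb that share was 77.8%, so both levels are uncertain.

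The imprinted genes that start within 10 kb of a bin moved both ways. Of 18 listed genes that start within 10 kb of a bin, 16 were expressed, 2 were higher, 4 were lower and the median change was -0.30. Over all 12207 expressed entries, 6.02% were higher and 28.2% lower, with a median of -0.52. After centring, Nnat, Nap1l5, Blcap and Airn were higher by 1 or more, Mest and Peg3 were lower, and the median turned to 0.10. Centring gave 11.0% higher and 15.8% lower over all. Counts among 16 genes are too small to be set apart from these shares. Expressed listed genes within 50 kb of a bin that start farther than 10 kb away all had negative changes. These were -2.26 (Copg2), -1.80 (Igf2r), -1.60 (Zim1), -1.09 (Grb10), -0.88 (Trappc9), -0.54 (H13), -0.19 (Herc3) and -0.08 (Inpp5f). After the junction adjustment those of Copg2, Igf2r, Zim1 and Grb10 were -0.57, -1.20, -1.39 and 0.06. Mest, a hydrolase gene expressed from the paternal copy, had 47.0 FPKM in treated and 273 FPKM in untreated cells, a log2 change of -2.51, of which -1.25 was left after the junction adjustment. Peg3 had 8.15 and 27.5 FPKM, Sgce, a sarcoglycan, 18.6 and 46.2 FPKM, and Slc38a4 2.08 and 6.82 FPKM in treated and untreated cells. After the junction adjustment the changes of Peg3, Sgce and Slc38a4 were -1.43, -0.05 and 0.01, so that Sgce and Slc38a4 were no longer lower. The 2 higher genes were Nnat and Nap1l5, the second at 6.40 FPKM in treated and 2.58 FPKM in untreated cells. Short of the limit were Plagl1 (36.8 and 53.7 FPKM), Impact (16.5 and 30.3 FPKM), Peg10 (3.12 and 3.78 FPKM), Zrsr1 (4.41 and 3.76 FPKM) and Airn (4.53 and 1.99 FPKM), each in treated and then untreated cells. Meg3 had 93.9 FPKM in treated and 123 FPKM in untreated cells. FPKM sums both parental copies, so nothing here tells which copy was transcribed, and Airn and Nespas overlap genes on the other strand in tables whose use of strand is not given.

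The peak lists address where the factors lay. An ATF4 peak of thapsigargin-treated cells overlapped 89 of the 353 intermediate bins by 1 bp or more (25.2%, interval 21.0% to 29.99%), beside 44.6% of all dense bins. The share was 46.6% in bins under 35%, 16.7% in bins over 65% and 25.3% in the 95 bins that failed the rule on cytosines. In intermediate bins within 1 kb of a gene start, 21 of 75 had a peak (28.0%, interval 19.1% to 39.0%), beside 50% of all dense bins there. Farther from gene starts, 68 of 278 did (24.5%, interval 19.8% to 29.8%), beside 28.7% of all dense bins there. At gene starts, bins under 35% stood at 50.3% and bins over 65% at 34.5%, and farther away at 32.5% and 14.9%. No test of these differences was made. The intervals treat bins as independent, although 1 peak can reach 2 bins, as at Crb2. No ATF4 list of untreated cells was analysed here, and which read depth or control lay behind the peaks is not given in the sources used here.

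**Figure D5:**
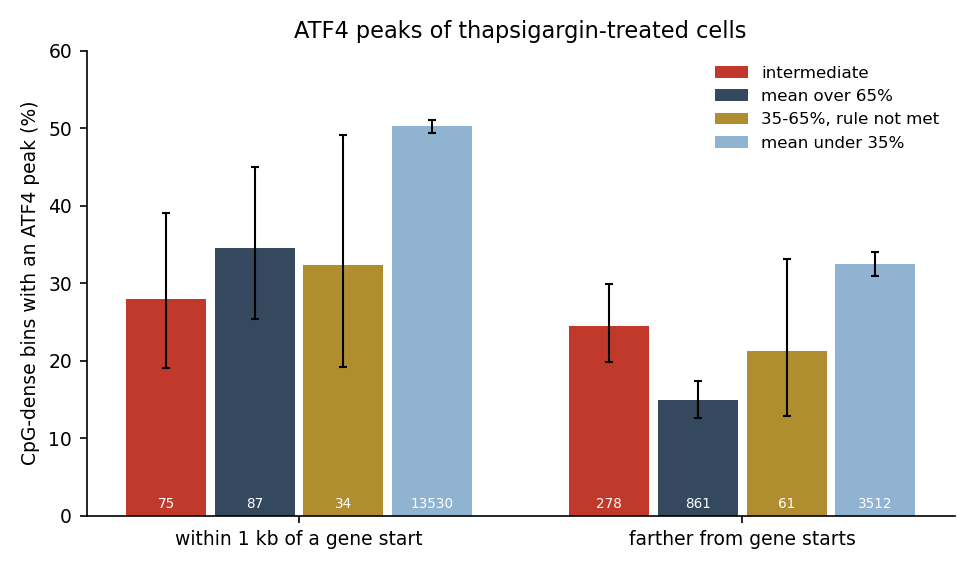
Share of CpG-dense bins that overlap an ATF4 peak (y axis, %), near and far from gene starts, by class of bin, with 95% Wilson intervals and the number of bins in each bar. Near gene starts the intermediate bins stood at 28.0% and the bins under 35% at 50.3%.

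The ATF4 peaks over intermediate bins had scores near the middle of their list. The authors' score had a median of 5.37 over the 90 ATF4 peaks concerned, against 5.41 over all 10109. The highest lay at chr7:7230351-7231136 over the entry Vmn2r29, a vomeronasal receptor gene, with a score of 63.1 and rank 45 of 10109, over a bin at 59.7%. The next lay at chr4:146561623-146562094 (Gm13152, rank 200) and at chr13:120277010-120277342 (3110070M22Rik, rank 857). The 28 imprinted bins had 5 ATF4 peaks, at Mest, Nap1l5, Plagl1, Grb10 and Impact.

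CEBPB peaks were few. In treated cells 6 intermediate bins overlapped one (1.7%, interval 0.781% to 3.66%), beside 2.07% of all dense bins, and in untreated cells 1 did (0.283%), beside 2.58%. Of the 6, 3 were imprinted: Zrsr1 at chr11:22872841-22873058 (score 20.6, rank 399 of 7861), Impact at chr18:13131968-13132169 (rank 2227) and an intron of Gnas at chr2:174152813-174153025 (rank 4764). The others lay at Vmn2r29, 3110070M22Rik and the gamma protocadherins, in bins that also had ATF4 peaks. The single peak of untreated cells was again at Zrsr1, at chr11:22872836-22873293, with rank 428 of 7317 in its own list. The authors' score had a median of 9.145 over the 6 peaks of treated cells, against 5.90 over that list, and was 275 for the peak of untreated cells, against 83.7 over its list. Scores of the lists are on different scales and were not compared between treated and untreated cells.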

How the data were processed

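Per the submitters' processing notes, reads were aligned to mm9 after CASAVA base calling (1.8.2 for RNA, 1.7 for immunoprecipitation, 1.8 for bisulfite libraries), with Bowtie named for RNA, BWA and SAMtools for immunoprecipitation and Novoalign for bisulfite reads. Neither the peak caller and its control nor the quantification program is named in those notes. The authors deposited methylation as a whole percent per cytosine, pooled over 2 bisulfite libraries and without coverage. The authors deposited FPKM with confidence bounds for 23583 gene entries per RNA library, and each peak with a score, per library.

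Only entries marked as CpG on autosomes were binned, and those with a heterozygous mark were left out. Of the cytosines in intermediate bins, 99.8% lay on a C of that strand in the mm9 genome. Genes and places came from GENCODE vM1 on mm9, and a bin over 1 kb from every gene start was placed by its centre. Copies were found with minimap2 2.31-r1302 (bins at 90% identity over 500 bp, transcripts at 95% over 200 bp). Ratio intervals used fragments implied by the bounds, taken to lie 2 standard errors from the value. Where this gave 3 to 200 fragments, the result was a whole number within 0.05 for 80.0% of 3888 entries of the treated library and 73.3% of 3906 of the untreated library. Shares have Wilson intervals. A stretch is a run of adjacent bins with 5 or more cytosines each and means of 35% to 65%. The scripts were tested on simulated bins. Python 3.11.15, pandas 2.3.3, scipy and pysam were used.

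The named genes were those of the imprinted list within 50 kb, the 15 loci with most bins (ties by number of cytosines), the 10 highest FPKM and the 6 largest changes each way among genes starting within 10 kb; of the loci with peaks only the highest-scoring were named. The members, lists, motifs and alternatives were chosen with earlier results of these data known, and genes called picked after their values were seen fall outside these rules. With 1 library per condition and methylation choosing the bins, no p-value was computed.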

Additional observations from a re-analysis of the deposited data

How the results depend on the processing

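The number of intermediate bins, 353, depended most on density and evenness. It was 1206 at a minimum of 60 cytosines, 160 at a minimum of 100, 229 for means of 40% to 60% and 148 when 75% of the cytosines had to lie between 25% and 75%. It stayed within 1.5 times for means of 30% to 70% (457), bins starting at position 500 (357), CpGs with values on both strands (342) and heterozygous entries kept (355). The 91 bins with a peak of any list became 79 by peak centre and 115 within 1 kb. With the upper 50% and upper 25% of each list by score they became 45 and 19. In this order, from the 91 bins on, the shares of intermediate bins were 25.78%, 22.38%, 32.58%, 12.75% and 5.38%. Those of all dense bins were 46.13%, 39.97%, 54.96%, 27.01% and 14.24%, higher in each setting. The 69 changed genes became 18 within 2 kb, 221 within 50 kb and 42 after the junction adjustment, and stayed within 1.5 times in the other 7 alternatives. The 17 higher genes became 11 at FPKM 5 or more, 6 within 2 kb and 41 within 50 kb. These are 9.24%, 10.3% and 6.81% of the genes tested. Over all entries the share was 6.53% at FPKM 5 or more and otherwise 6.02%. The 52 lower genes became 12 within 2 kb, 180 within 50 kb, 26 after centring, 24 for genes whose body overlaps a bin, centred, and 22 after the junction adjustment. Within 2 kb and 50 kb these are 20.7% and 29.9% of the genes tested, beside 28.2% over all. The 2 centred counts are 14.4% and 12.6%, beside 15.8% over all. After the junction adjustment the share was 12.8%, beside 10.5% over all. The number of genes tested, 58 within 2 kb and 602 within 50 kb against 180 within 10 kb, sets those counts by construction; the cause of the others was not tested. The overlap of gene bodies and the junction adjustment were added after the data were seen. No paired analysis was possible because each condition had 1 RNA library. Without coverage no interval can be given for a methylation percent.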
